A study of Mus musculus with 52 samples.

Results

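Hypothalamic gene expression was compared between mice infused with insulin at a low rate and mice infused with saline. The comparison took the 6 libraries labelled as hypothalamus at the low rate and the 5 labelled as basal hypothalamus, 11 of the 52 libraries of the series, and estimated low minus basal for every gene. All mice were males of the inbred strain C57BL/6J, aged 3 months, that carried a jugular vein catheter and were awake during 3 h of infusion. The low group received insulin at 4 mU/kg/min and the basal group received saline, and glucose was given to adjust blood glucose, a procedure called a clamp. Another 5 hypothalamic libraries, from mice infused at 12 mU/kg/min (high), entered the estimate of the spread between libraries and are otherwise quoted only side by side. Whether each library came from its own mouse is not stated in the labels, and the p-values therefore rest on the spread among libraries, which may be technical. The tissue was a whole dissected region, so fewer cells of a type and less RNA per cell cannot be told apart.

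The hypothalamus senses hormones and nutrients and sets feeding, heat production and pituitary output. Insulin reaches it from the blood and acts on receptors that signal through phosphatidylinositol 3-kinase and Akt, which holds FOXO transcription factors out of the nucleus and favours lipid synthesis through SREBP factors. In RNA sequencing, libraries can also differ in how fully they represent GC-rich and GC-poor transcripts, and such a lean moves very many genes at once, each according to its base composition.

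The range of base composition among genes with large differences is shown by 120 coding bases from each of 6 of them, with G and C in capitals. Lmbrd2 (chr15:9140550-9202483, plus strand, build GRCm38) and Zfp871 (chr17:32765496-32788287, minus strand) were higher at the low rate and have GC-poor transcripts, with 37.8% and 40.0% GC. Rprml (chr11:103649570-103650579, plus strand) and Tmem158 (chr9:123259053-123260764, minus strand) were lower and have GC-rich transcripts, with 64.1% and 63.8% GC. Both pairs were picked by GC content among the genes with the largest differences, so the contrast between them is built in. Slc9a7 (chrX:20105754-20291807, minus strand) and Fam183b (chr11:58792797-58801960, minus strand) lie near the median GC content of all tested genes (49.6%). Slc9a7 was higher with 50.8% GC and Fam183b lower with 48.3% GC. The stretches are exonic, run 5′ to 3′ along the longest transcript of each gene in GENCODE M21, and hold 40%, 39.2%, 72.5%, 79.2%, 50.8% and 45.8% G and C in the order printed.
Lmbrd2: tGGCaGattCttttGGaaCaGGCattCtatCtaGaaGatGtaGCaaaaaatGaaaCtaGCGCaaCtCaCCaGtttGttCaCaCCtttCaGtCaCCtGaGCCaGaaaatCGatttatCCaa
Zfp871: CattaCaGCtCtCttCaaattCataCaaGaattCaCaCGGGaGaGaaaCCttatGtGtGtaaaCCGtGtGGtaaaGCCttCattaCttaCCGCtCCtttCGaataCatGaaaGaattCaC
Rprml: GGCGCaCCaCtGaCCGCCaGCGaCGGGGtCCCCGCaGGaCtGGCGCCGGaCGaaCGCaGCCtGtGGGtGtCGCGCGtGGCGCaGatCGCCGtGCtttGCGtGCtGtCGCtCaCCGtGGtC
Tmem158: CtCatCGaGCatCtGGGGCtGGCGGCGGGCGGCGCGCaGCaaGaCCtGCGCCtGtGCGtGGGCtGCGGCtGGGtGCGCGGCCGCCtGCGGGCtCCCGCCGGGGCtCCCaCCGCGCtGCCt
Slc9a7: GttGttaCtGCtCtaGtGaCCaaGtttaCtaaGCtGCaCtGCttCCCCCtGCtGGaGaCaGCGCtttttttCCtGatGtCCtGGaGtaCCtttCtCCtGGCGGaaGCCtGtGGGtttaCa
Fam183b: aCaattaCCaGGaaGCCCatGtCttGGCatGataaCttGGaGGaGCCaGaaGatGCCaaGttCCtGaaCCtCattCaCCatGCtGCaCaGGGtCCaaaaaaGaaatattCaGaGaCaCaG

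The libraries overlapped in depth and varied in lean. Total counts ranged from 3152381 to 7201582 in the 6 low libraries (median 4786650) and from 2453412 to 7144772 in the 5 basal libraries (median 4819099), a difference in means of -65171 counts (2-sided exact permutation test, p = 0.952). The lean of a library was taken as the Spearman correlation, across genes, between transcript GC content and the library's deviation in log2 CPM (counts scaled to a common library size) from the mean of the 16 hypothalamic libraries. It describes a library and is no test, since genes are not independent. The lean ran from -0.608 to 0.287 in low libraries (median -0.258) and was 0.635, 0.700, -0.227, -0.154 and 0.415 in basal replicates 1 to 5. Basal replicates 1, 2 and 5, called leaning from here on, were over 0.4, and no low library was. The mean lean was -0.233 ± 0.308 (SD, n = 6) in low and 0.274 ± 0.438 (SD, n = 5) in basal libraries. The difference of -0.507 did not pass the threshold of 0.05 (2-sided exact permutation test, p = 0.0519). The same correlation with transcript length in place of GC content differed by 0.284 between low and basal libraries (2-sided exact permutation test, p = 0.177).

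**Figure D1:**
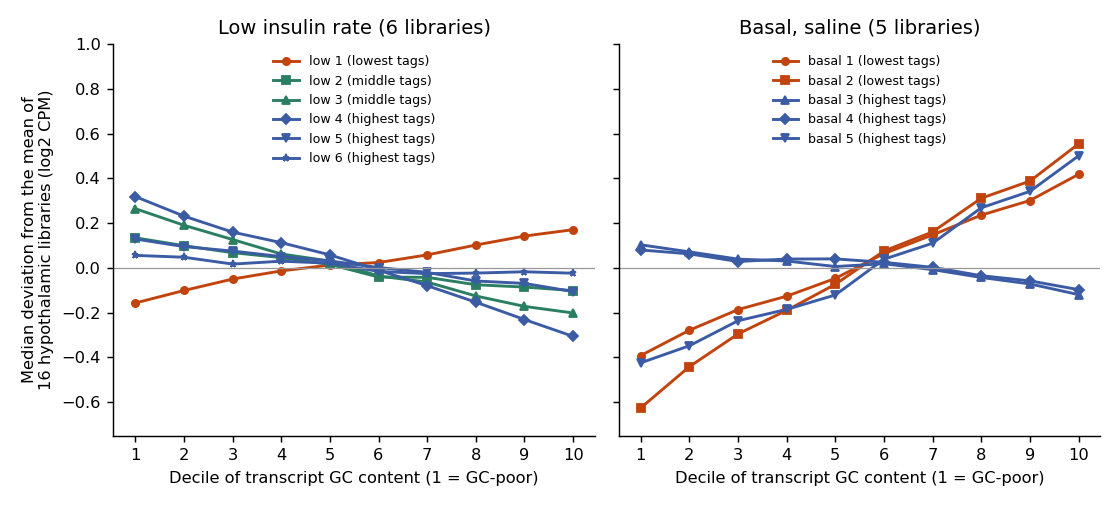
Median deviation of each library from the mean of 16 hypothalamic libraries (log2 CPM, y axis) in 10 classes of genes ordered by transcript GC content (x axis), for 6 low libraries at the left and 5 basal libraries at the right, coloured by tag range. The lines of basal replicates 1, 2 and 5, with leans of 0.635, 0.700 and 0.415, climb towards GC-rich genes, and that of low replicate 4, with a lean of -0.608, falls.

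The titles also give each library a tag number, and these fall into 3 separate ranges. What a range stands for is not given, and it was treated as a possible batch. The lowest, middle and highest ranges held 1, 2 and 3 low libraries and 2, 0 and 3 basal libraries, so the middle range gives no contrast. In the lowest range the lean was 0.287 in low replicate 1 and 0.635 and 0.700 in basal replicates 1 and 2. In the highest range it was -0.608, -0.309 and -0.119 in low replicates 4, 5 and 6 and -0.227, -0.154 and 0.415 in basal replicates 3, 4 and 5. Libraries of the other regions differed in lean between ranges as well. The 3 hippocampal libraries of the lowest range had leans of 0.550 to 0.608, the 6 of the middle range -0.620 to 0.174 and the 9 of the highest range -0.403 to 0.403. In the nucleus accumbens the leans were 0.412 to 0.590 in the lowest (n = 3), -0.564 to 0.390 in the middle (n = 6) and -0.430 to 0.0230 in the highest range (n = 9). Low and basal libraries were thus spread unevenly over both tag range and lean.

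The tissue label was checked against hypothalamic markers. Hypocretin (Hcrt), made by wake-promoting neurons of the lateral hypothalamus, had 1.90 to 102 CPM in low libraries (median 65.1) and 184, 263, 63.3, 111 and 439 CPM in basal replicates 1 to 5. Nr5a1, the transcription factor of the ventromedial nucleus, had 0 to 22.2 CPM in low libraries (median 8.94) and 32.6, 22.3, 35.2, 26.7 and 25.7 CPM in basal replicates 1 to 5. The groups overlapped in Hcrt, whereas in Nr5a1 all low libraries were below all basal ones, by a narrow margin. Neither difference passed edgeR's quasi-likelihood test with Benjamini-Hochberg adjustment (adjusted p = 0.164 for Hcrt and 0.199 for Nr5a1). Low replicates 1, 2 and 6 had under 1 CPM of at least 1 gene among Oxt, Avp, Pomc, Hcrt and Pmch, which encode hypothalamic peptides, and 0 of the 5 basal libraries did. Without these 3 low libraries and 2 such high libraries, 24 genes were called, all higher. The part of the dissection in the differences was not tested.

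Of 14139 genes tested, 760 (5.38%) passed an adjusted p of 0.05 in edgeR's test, 508 higher (3.59%) and 252 lower (1.78%) at the low rate, and 4221 had an unadjusted p under 0.05. The median log2 fold change of all genes tested was -0.02, with 6776 above 0 and 7363 below. Called genes split by base composition. Those called higher had a median transcript GC content of 43.3%, and 478 lay below the median of all tested genes (49.6%) and 26 above it. Those called lower had a median of 57.1%, and 241 lay above that median and 9 below it. Transcript and gene length differed too. Genes called higher had a median transcript length of 7169 bases and a median genomic span of 77379 bases, genes called lower had 3000 and 13130.5 bases, and all tested genes had 3477.5 and 25025.5 bases. The number of calls rested on single libraries: it was 52 without basal replicate 2 and 3171 without basal replicate 4. Fitted on the low and basal libraries alone, without the high ones, 22 genes were called, all higher.

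Sorted into 10 classes of equal size by GC content, the most GC-poor class had 10.1% of its genes called higher and 0% called lower, and the most GC-rich class had 0.0710% called higher and 7.45% called lower. The classes between them had 9.30, 7.31, 5.04, 2.20, 0.994, 0.639, 0.0710 and 0.0710% called higher, in order of GC content. The median log2 fold change was 0.35 in the GC-poor and -0.40 in the GC-rich class. Across genes, which are not independent replicates and share the same libraries, GC content and log2 fold change had a Spearman correlation of -0.617. With a covariate for the lean in the model, the medians of these classes were 0.04 and -0.05 and the correlation was -0.153. Without the 3 leaning basal libraries, which leaves 2, they were 0.04 and 0.03 and the correlation was -0.0637. The lean is defined by GC content, so a flatter trend is built into both of these fits. Tag range is not defined by GC content. As a batch term it left the correlation at -0.539, and in the highest range alone, with 3 low and 3 basal libraries, the class medians were 0.21 and -0.31 and the correlation was -0.479.

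**Figure D2:**
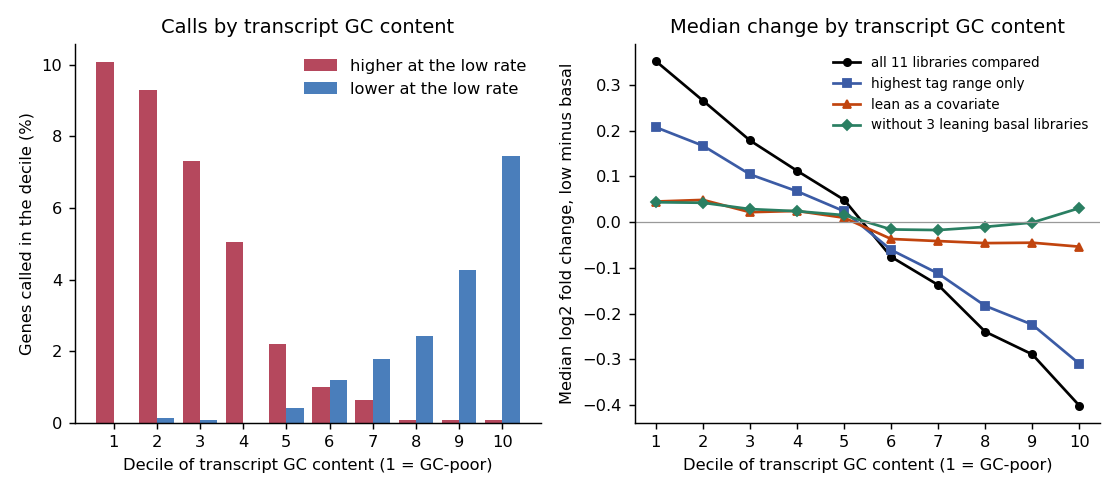
Left, share of genes called higher and lower at the low rate (%, y axis) in 10 classes by transcript GC content (x axis, GC-poor at 1); right, median log2 fold change of low minus basal per class in 4 fits. Calls higher lie in the GC-poor classes (10.1% in the first) and calls lower in the GC-rich classes (7.45% in the last). The medians lie near 0 with the lean in the model or without the leaning basal libraries, which the definition of the lean by GC content builds in.

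Leaning and other basal libraries were also compared gene by gene. Of all 14139 genes tested, 7316 had less in the 3 leaning basal libraries than in the other 2. Among the 508 genes called higher, 496 had less there, with a median difference of -0.56 in log2 CPM. Among the 252 called lower, 248 had more there, with a median of 0.54. The same basal libraries enter the fold changes, so this agreement in sign is partly built in. Hippocampal and accumbens libraries do not enter them. A slope of each gene on the lean was estimated in those libraries, with region and infusion groups as terms, and multiplied by the difference in lean of -0.507. The resulting shift was above 0 for 504 of the 508 genes called higher (median 0.36) and below 0 for 246 of the 252 called lower (median -0.30). Over all tested genes it was above 0 for 7205 and below 0 for 6934. The lean is defined by GC content, and called genes split by GC content, so this agreement in sign is partly built in as well. The fitted change itself had a median of 0.77 among genes called higher and -0.64 among genes called lower. With each gene's slope from the other regions entered as an offset, 9 genes were called, all higher.

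**Figure D3:**
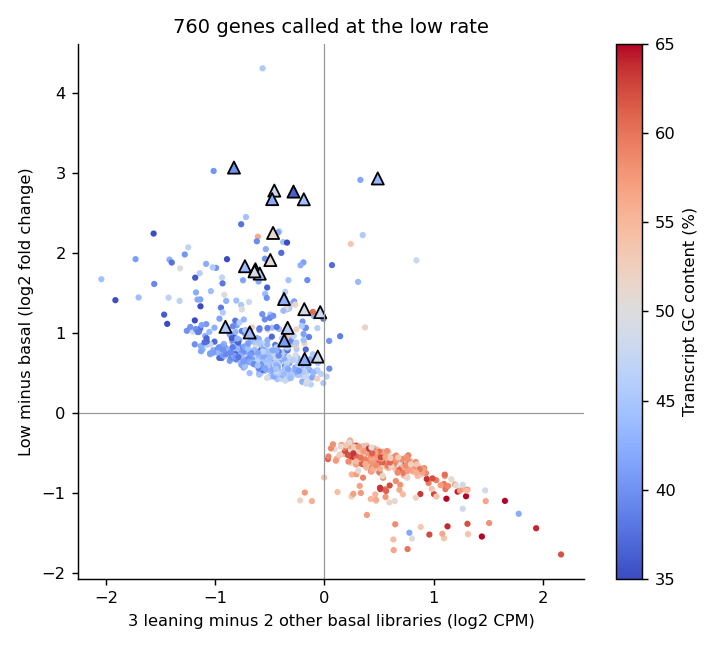
Log2 fold change of low minus basal (y axis) against the difference between the 3 leaning and the 2 other basal libraries (log2 CPM, x axis) for the 760 called genes, coloured by transcript GC content. Of the higher genes 496 of 508 lie left of 0 and of the lower genes 248 of 252 lie right of 0. Of all 14139 genes tested, called or not, 7316 had a difference below 0. Triangles mark the 21 genes called also with the lean and with the tag range.

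With the lean as a covariate 22 genes were called (0.156%), all higher, and with a batch term for tag range 29 were called (0.205%), 27 higher and 2 lower. Of the 760 genes, 21 passed in both fits, and all 21 were higher. Dcc, the netrin receptor that steers growing axons, had 11.4 to 21.3 CPM in low libraries (median 13.3) and 2.84, 1.93, 1.41, 4.52 and 1.99 CPM in basal replicates 1 to 5. No low library overlapped a basal one. The log2 fold change was 2.67 (SE 0.26, adjusted p = 4.31e-05), and it was 2.66 with the lean, 2.62 with the tag range, 2.60 without the leaning basal libraries and 2.72 in the highest range alone. With the slope of the other regions as an offset it was 2.20 (adjusted p = 0.00417), and with an offset that follows GC content and length smoothly in each library 2.17 (adjusted p = 0.000152). The shift given by its slope in the other regions was 0.46.

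Sesn3 (chr9:14275067-14333101, plus strand, GRCm38) encodes a sestrin, a stress-responsive protein that restrains the growth kinase mTORC1 and is a known FOXO target. It had 43.6 to 66.9 CPM in low libraries (median 60.0) and 16.8, 16.8, 17.7, 27.1 and 10.6 CPM in basal replicates 1 to 5, without overlap. It rose by 1.74 (SE 0.18, adjusted p = 6.7e-05), by 1.49 with the lean (adjusted p = 0.000452) and by 1.64 with the tag range (adjusted p = 0.0012). The shift given by its slope in the other regions was 0.52, and the leaning basal libraries lay -0.59 from the others in log2 CPM. Ryr3 (chr2:112631355-113217096, minus strand), a calcium release channel of the endoplasmic reticulum, had 76.9 to 128 CPM in low libraries (median 101) and 50.4, 41.3, 43.3, 44.8 and 27.9 CPM in basal replicates 1 to 5. It rose by 1.30 (SE 0.16, adjusted p = 0.000404) and by 1.35 with the lean, again without overlap. With the slope of the other regions as an offset Sesn3 had 1.22 (adjusted p = 0.00417) and Ryr3 0.97 (adjusted p = 0.103). Dcc, Sesn3 and Ryr3 were the 3 genes called without the leaning basal libraries (0.0204% of 14705 tested).

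Atp8a2 (chr14:59638540-60197179, minus strand, GRCm38), a flippase that moves phospholipids between membrane leaflets, had 37.4 to 60.6 CPM in low libraries (median 46.8) and 21.1, 20.5, 17.6, 24.3 and 18.8 CPM in basal replicates 1 to 5. All low libraries were above all basal ones. Its log2 fold change of 1.26 (SE 0.15, adjusted p = 0.000386) was 1.27 with the lean, 1.26 with the tag range, 1.25 without the leaning basal libraries and 1.35 in the highest range. The leaning basal libraries lay -0.04 from the others, the shift from its slope in the other regions was 0.21, and with that slope as an offset the value was 1.04 (adjusted p = 0.01). With the smooth offset it was 0.84 (adjusted p = 0.00691). Insig1 (chr5:28071363-28078662, plus strand) keeps SREBP from leaving the endoplasmic reticulum and is an SREBP target. It had 95.0 to 140 CPM in low libraries (median 113) and 69.7, 60.9, 67.8, 75.7 and 76.3 CPM in basal replicates 1 to 5, also without overlap. Its log2 fold change was 0.70 (SE 0.12, adjusted p = 0.00648), 0.70 with the lean (adjusted p = 0.0368), 0.70 with the tag range (adjusted p = 0.033) and 0.67 without the leaning basal libraries. The leaning basal libraries lay -0.06 from the others, its shift from the other regions was 0.01, and with that slope as an offset the value was 0.69 (adjusted p = 0.014). Without the libraries short of a peptide gene Insig1 had 0.49 and did not pass (adjusted p = 0.114).

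Slc9a7, a sodium and proton exchanger of Golgi membranes, had 14.2 to 26.7 CPM in low libraries (median 18.2) and 4.66, 4.69, 4.55, 8.63 and 3.76 CPM in basal replicates 1 to 5. It rose by 1.91 (adjusted p = 0.000425) and by 1.83 with the lean. The shift given by its slope in the other regions was 0.52, and the leaning basal libraries lay -0.49 from the others in log2 CPM. Lcor, a corepressor of nuclear receptors, had 8.11 to 14.8 CPM in low libraries (median 12.2) and 1.01, 2.07, 1.26, 4.11 and 1.77 CPM in basal ones, a log2 fold change of 2.68 (adjusted p = 0.00135). Dnajb14, a co-chaperone anchored in the endoplasmic reticulum, had 208 to 251 CPM in low libraries (median 233) and 138, 133, 163, 152 and 145 CPM in basal ones. It rose by 0.67 (adjusted p = 0.00135) and by 0.54 with the lean, but had 0.10 with the smooth offset (adjusted p = 0.678). The groups did not overlap in any of these genes. With the slope of the other regions as an offset none of the 3 passed, Slc9a7 having 1.38 (adjusted p = 0.07), Lcor 2.01 (adjusted p = 0.114) and Dnajb14 0.37 (adjusted p = 0.12).

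Zfp871, a zinc finger gene, had 13.9 to 58.8 CPM in low libraries (median 17.8) and 3.24, 1.52, 3.14, 5.76 and 2.21 CPM in basal replicates 1 to 5. That is a log2 fold change of 3.07 (adjusted p = 0.00135), and the highest value was that of low replicate 2. With the slope of the other regions as an offset it was 2.37 (adjusted p = 0.125). Xpo4, a nuclear transport receptor, rose by 1.42 (adjusted p = 0.000774) and Stxbp5l, a tomosyn that restrains vesicle fusion, by 1.83 (adjusted p = 0.00289), with all low libraries above all basal ones in both. Srrm4os rose by 1.80, but it is an antisense gene, and how strand was handled in counting is not given in the sources used here. H2-T24 rose by 1.77, but it belongs to the histocompatibility genes, whose similar copies can share reads. Others of the 21 were Akap10, an anchor of protein kinase A (1.06), Phc3, a Polycomb subunit (1.01), Pgm2l1, which makes glucose-1,6-bisphosphate (0.91), and Zfhx4, a homeobox and zinc finger factor (1.08).

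**Figure D4:**
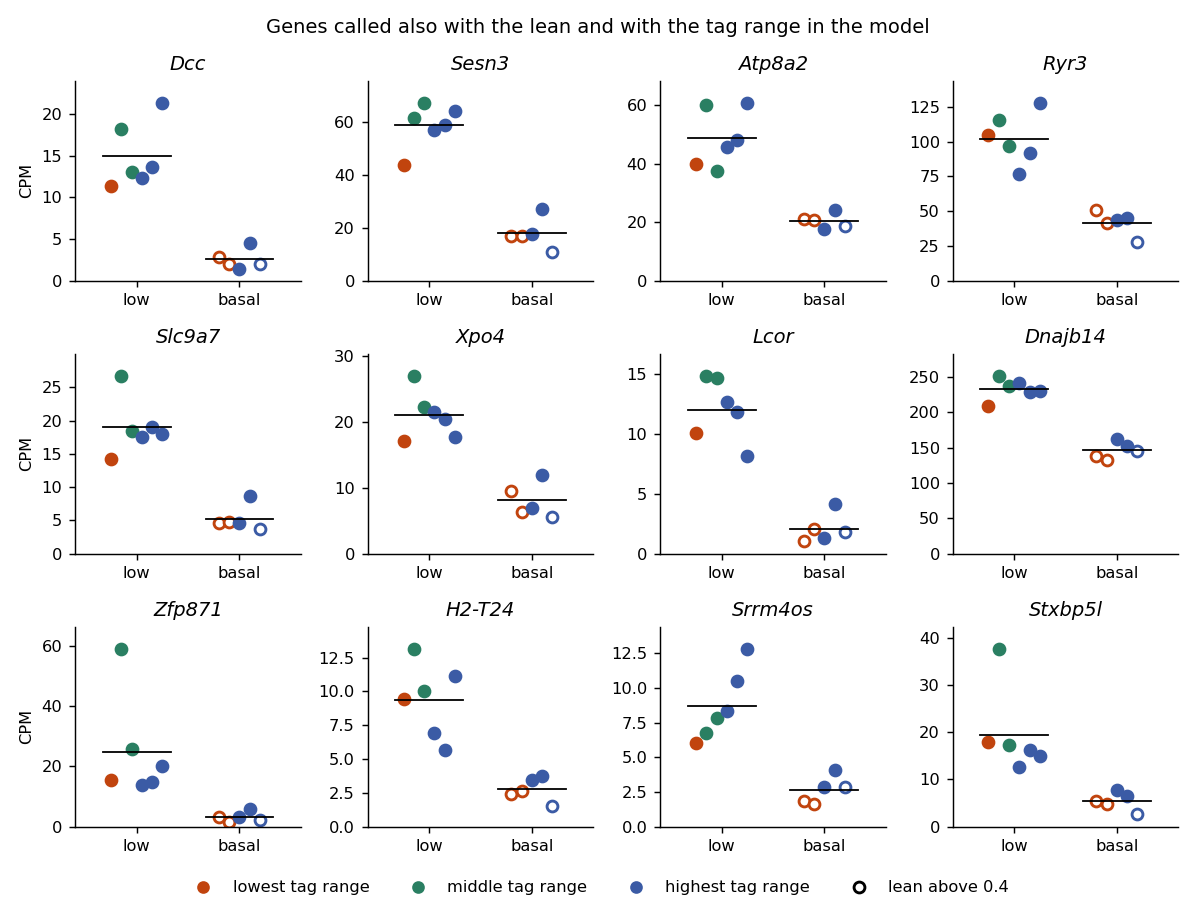
Expression (CPM, y axis from 0) of 12 genes called also with the lean and with the tag range, in 6 low and 5 basal libraries; each point is a library coloured by tag range, open points have a lean above 0.4, and lines are group means. In every panel the low libraries lie above the basal ones, as for Dcc with 11.4 to 21.3 CPM in low libraries and 1.41 to 4.52 CPM in basal ones.

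Some of the largest differences were in genes that varied widely among the low libraries. Chrnb3, a nicotinic receptor subunit, had 0.472 to 55.0 CPM in low libraries (median 9.09) and 0.608, 0.551, 1.41, 0.822 and 0.664 CPM in basal replicates 1 to 5. Only 4 of 6 low libraries were above all basal ones, and 1 was below them all. The 3 highest values, 15.5, 55.0 and 26.9 CPM, were those of low replicates 1, 2 and 6, the libraries short of a peptide gene, and low replicates 3, 4 and 5 had 2.71, 0.993 and 0.472 CPM. The log2 fold change was 4.31 (SE 1.21, adjusted p = 0.047). Lnpep encodes a peptidase known as IRAP that travels in insulin-responsive vesicles. It had 12.0 to 93.7 CPM in low libraries (median 18.3) and 3.44, 2.21, 3.61, 9.05 and 2.43 CPM in basal ones, without overlap. It rose by 3.03 (SE 0.58, adjusted p = 0.0131), with 2.94 under the lean (adjusted p = 0.189). Cbl, a ubiquitin ligase that tags receptor tyrosine kinases, had 19.9 to 44.7 CPM in low libraries (median 35.8) and 8.51, 7.72, 8.64, 16.4 and 1.55 CPM in basal ones. It rose by 2.07 (adjusted p = 0.00417), with 1.72 under the lean (adjusted p = 0.101), and the leaning basal libraries lay -1.25 from the others, basal replicate 5 being lowest.

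Lmbrd2, the gene with 37.8% GC shown above, had 31.6 to 69.7 CPM in low libraries (median 61.3) and 12.0, 10.9, 16.5, 35.8 and 5.53 CPM in basal replicates 1 to 5. The fitted change was 1.88 (adjusted p = 0.00978), 1.19 without the leaning basal libraries and 1.39 with the lean (adjusted p = 0.122). Plcxd3, which carries a phospholipase C domain, had 1.92 (adjusted p = 0.0156) and 1.08 without those libraries. In both, 1 low library was not above basal replicate 4, and the leaning basal libraries were lowest. The other large risers were Fam135b (2.05, adjusted p = 0.00492) and Ndnf, a secreted neurotrophic factor (2.26, adjusted p = 0.0441). Ndnf overlapped, with 3.15 to 23.3 CPM in low libraries (median 6.07) and 1.62, 1.52, 1.41, 3.70 and 1.77 CPM in basal ones. Its 3 highest low values were also those of low replicates 1, 2 and 6, and without the libraries short of a peptide gene it had 1.03 (adjusted p = 0.116).

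Most of the largest falls were in genes that were high in the leaning basal libraries. Rprml, named for its likeness to reprimo, had 2.33 to 6.31 CPM in low libraries (median 4.35) and 10.9, 20.4, 5.50, 2.47 and 16.1 CPM in basal replicates 1 to 5. The high basal values are those of replicates 1, 2 and 5. Its log2 fold change was -1.45 (adjusted p = 0.0361), and -0.05 without the leaning libraries. Tmem158, a membrane protein gene, had 5.71 to 17.7 CPM in low libraries (median 13.9) and 41.9, 37.1, 22.6, 17.7 and 55.3 CPM in basal ones, a log2 fold change of -1.42 (adjusted p = 0.0112) and -0.64 without those libraries. It was the 1 lower gene among the 48 that stayed called when each of the 11 libraries was left out in turn. Cited1, a transcriptional coactivator, had 3.39 to 15.5 CPM in low libraries (median 9.04) and 23.5, 38.2, 19.2, 14.4 and 38.9 CPM in basal ones. It fell by 1.52 (adjusted p = 0.0305), and its value was -0.86 without the leaning libraries. Pafah1b3, a subunit of an acetylhydrolase of platelet-activating factor, and Rnaseh2c, a subunit of ribonuclease H2, fell by 1.11 and 1.38 and had 0.04 and -0.08 without those libraries.

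Among other lower genes, Angptl4, a secreted inhibitor of lipoprotein lipase that fasting induces, had 5.34 to 8.50 CPM in low libraries (median 6.65) and 14.4, 18.6, 12.1, 9.46 and 18.1 CPM in basal replicates 1 to 5. All low libraries were below all basal ones, and the log2 fold change was -1.11 (SE 0.20, adjusted p = 0.0101), -0.90 with the lean (adjusted p = 0.189) and -0.69 without the leaning libraries. Wfikkn2, which binds myostatin, had 3.17 to 7.47 CPM in low libraries (median 4.72) and 10.5, 11.7, 12.2, 9.87 and 8.41 CPM in basal ones. Its log2 fold change of -1.11 (adjusted p = 0.0419) was -1.19 without the leaning libraries, which did not stand apart in this gene. Rrad, a small GTPase that inhibits calcium channels, fell by 1.40 (adjusted p = 0.0294), and had -0.88 without those libraries. Tnnc1, a troponin subunit, and Rgs14, a regulator of G protein signalling, fell by 1.57 (adjusted p = 0.0387) and 1.12 (adjusted p = 0.0391), and had -0.61 and -0.75 without the leaning libraries. In each, 5 of 6 low libraries were below all basal ones. All 74 genes named by rule stayed called without low replicate 1, basal replicate 3 or basal replicate 4, and between 18 and 48 of them lost the call without each of the other 8 libraries.

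**Figure D5:**
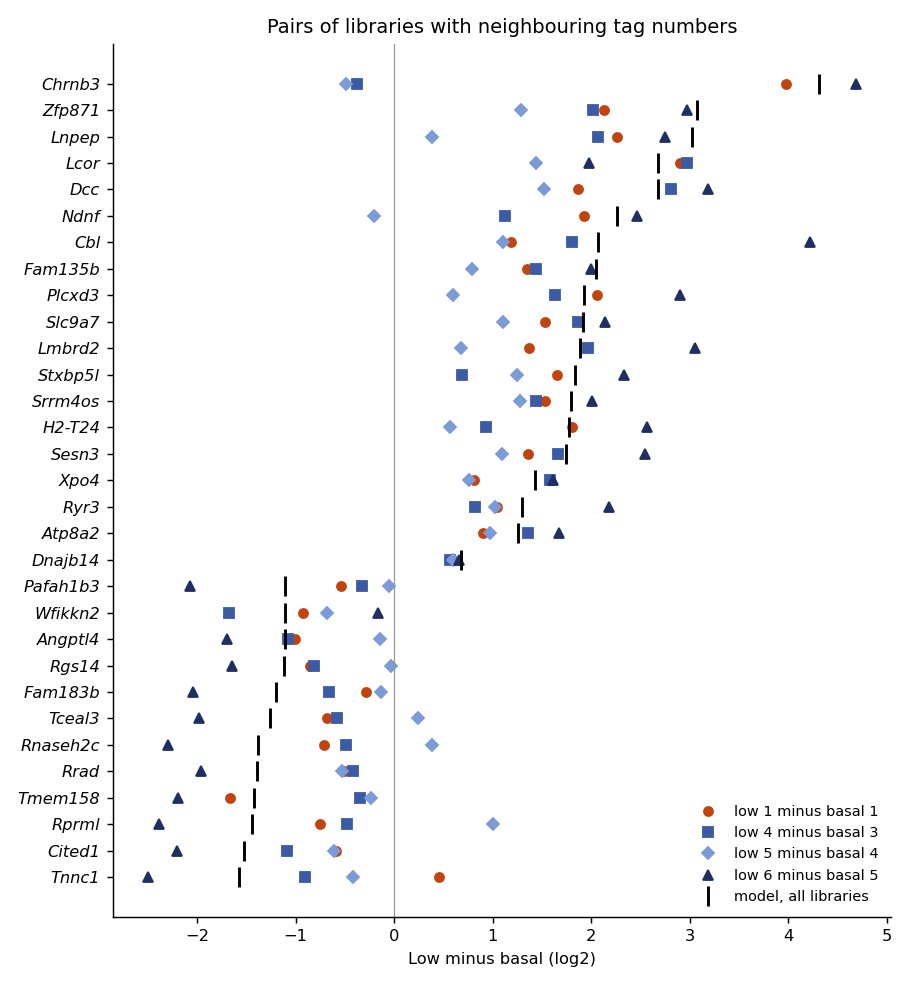
Low minus basal (log2, x axis) for the genes with the largest differences and those called also with the lean and the tag range (y axis), as differences in log2 CPM within 4 pairs of libraries of the same tag run and as the fitted value over all libraries. All 4 pairs lie right of 0 for Dcc (1.86, 2.81, 1.52 and 3.19), and all 4 lie left of 0 for Tmem158 (-1.67, -0.34, -0.24 and -2.20).

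Tag numbers that follow each other form runs, and 4 runs held 1 low and 1 basal hypothalamic library. Differences within these pairs set libraries of the same run side by side, with no test. Of the 508 genes called higher, 411 were higher in all 4 pairs, against 11.7% of all tested genes, and of the 252 called lower, 169 were lower in all 4, against 9.33%. These libraries also gave the calls, so nothing is read from the counts alone. The size differed by pair. Genes called higher had a median difference of 0.53 for low 1 minus basal 1, 0.51 for low 4 minus basal 3, 0.23 for low 5 minus basal 4 and 1.21 for low 6 minus basal 5. Genes called lower had -0.54, -0.35, -0.11 and -0.88 in the same pairs. The smallest medians came from the pair with leans of -0.309 (low) and -0.154 (basal), and the largest from the pair with -0.119 (low) and 0.415 (basal). Sesn3 had 1.35, 1.66, 1.10 and 2.54 in these pairs and Insig1 had 0.81, 0.60, 0.33 and 0.72. With the run as a batch term 16 genes were called. In the highest range alone edgeR's test called 0 genes, with 879 of 14405 at an unadjusted p under 0.05.

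Genes that changed against the direction of their base composition were few. Rnf213, a large ubiquitin ligase with 50.9% GC, had 29.4 to 36.6 CPM in low libraries (median 32.4) and 15.0, 15.9, 19.6, 18.9 and 9.95 CPM in basal replicates 1 to 5, without overlap. It rose by 1.04 (adjusted p = 0.00536), and its value with the lean was 0.94 (adjusted p = 0.0748). Dgki, a diacylglycerol kinase, had 13.9 to 33.9 CPM in low libraries (median 20.0) and 8.51, 13.5, 8.79, 8.22 and 11.9 CPM in basal ones. Dgki had a log2 fold change of 1.07 (adjusted p = 0.0133) and 1.37 with the lean (adjusted p = 0.0115), and the leaning basal libraries were 0.37 above the others. Aff2, a nuclear regulator of transcription, Clstn2, a synaptic calsyntenin, and Smyd1, a methyltransferase known from muscle, rose by 1.48, 0.71 and 1.08, with all low libraries above all basal ones in each.

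In the 3 most GC-rich classes the genes called higher were Kcna3, a voltage-gated potassium channel with 60.3% GC, En2, a homeobox factor of midbrain and hindbrain, and Gm12359, an antisense gene. En2 and Gm12359 were chosen after their values were seen, as were Cdh13 and Mir153 among the lower genes. Kcna3 had 3.79 to 10.9 CPM in low libraries (median 6.70) and 3.85, 3.31, 1.73, 4.93 and 1.55 CPM in basal replicates 1 to 5, a log2 fold change of 1.26 (adjusted p = 0.0367) that was 1.30 without the leaning libraries. En2 had 1.89 to 15.0 CPM in low libraries (median 4.86) and 0.810, 0.827, 1.73, 1.64 and 1.33 CPM in basal ones. It rose by 2.21 (adjusted p = 0.0314), and all low libraries were above all basal ones. The values of low replicates 1, 2 and 6, short of a peptide gene, were 6.63, 15.0 and 6.19 CPM, and those of low replicates 3, 4 and 5 were 3.52, 1.99 and 1.89 CPM. Gm12359 rose by 0.94 (adjusted p = 0.0397). In the 3 most GC-poor classes Cdh13, an anchored cadherin, Tceal3 and Mir153, which lies inside a host gene, were called lower. Cdh13 had 99.5 to 130 CPM in low libraries (median 115) and 157, 167, 142, 123 and 190 CPM in basal ones, a log2 fold change of -0.42 (adjusted p = 0.0481) and -0.18 without the leaning libraries.

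Of the lower genes below the median GC content, Snd1, a nuclease of RNA silencing complexes, had 51.2 to 75.2 CPM in low libraries (median 60.7) and 111, 105, 72.5, 81.8 and 108 CPM in basal replicates 1 to 5. It fell by 0.61 (adjusted p = 0.025), and its value was -0.30 without the leaning libraries. Fxyd6, a regulator of the sodium pump with 48.6% GC, had 73.4 to 165 CPM in low libraries (median 109) and 245, 310, 125, 88.4 and 329 CPM in basal ones. The 3 highest basal values are those of the leaning libraries. The log2 fold change of Fxyd6 was -0.97 (adjusted p = 0.0455), and 0.06 without them. Tceal3, whose similar copies can share reads, had -1.26 (adjusted p = 0.0419) and 0.05 without them. Fam183b, Spint2, a serine protease inhibitor, and Hexim1, an inhibitor of transcription elongation, fell by 1.20, 0.77 and 0.63, and had -0.27, -0.18 and -0.19 without the leaning libraries.

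Gene lists by role were then counted beside the 3.59% of all genes called higher, the 1.78% called lower and the median of -0.02. Among insulin and IGF signalling genes, 2 of 44 tested were higher and 0 lower, with a median log2 fold change of 0.15 (-0.05 without the leaning libraries). They were Cbl and Rictor, the mTORC2 subunit, which had 63.8 to 143 CPM in low libraries (median 106) and 54.9, 38.9, 70.8, 94.2 and 37.2 CPM in basal replicates 1 to 5 (0.86, adjusted p = 0.0351, and 0.38 without the leaning libraries). The insulin receptor gene Insr had 117 to 157 CPM in low libraries (median 150) and 105, 80.5, 116, 157 and 58.2 CPM in basal ones and did not pass (0.49, adjusted p = 0.0913). The docking protein gene Irs2 had 42.8 to 57.9 CPM in low libraries (median 46.3) and 66.8, 60.5, 58.3, 73.2 and 21.5 CPM in basal ones (-0.21, adjusted p = 0.514). Basal replicate 5 stood below the other basal libraries in all 3 of Rictor, Insr and Irs2.

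Of 27 FOXO and fasting-responsive targets, 2 were higher and 1 lower, with a median of -0.20 (0.06 without the leaning libraries). The higher genes were Sesn3 and Ppargc1a, a coactivator of mitochondrial genes, and the lower was Angptl4. Ppargc1a had 90.6 to 138 CPM in low libraries (median 103) and 50.6, 44.5, 73.3, 104 and 67.9 CPM in basal replicates 1 to 5 (0.67, adjusted p = 0.0403), and 3 low libraries were above all basal ones. Txnip, a glucose-induced inhibitor of thioredoxin, did not pass, with 29.4 to 45.8 CPM in low libraries (median 39.1) and 58.9, 50.7, 62.8, 57.6 and 45.6 CPM in basal ones (-0.51, adjusted p = 0.0665, and -0.64 without the leaning libraries).

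Of 29 genes of sterol synthesis, uptake and sensing, 4 were higher and 1 lower, with a median of 0.17 that was 0.25 without the leaning libraries. Besides Insig1, Stard4, a cytosolic sterol carrier, had 42.3 to 57.7 CPM in low libraries (median 50.9) and 28.2, 26.7, 36.0, 39.9 and 25.2 CPM in basal replicates 1 to 5, without overlap (0.69, adjusted p = 0.0138). Hsd17b7, a late synthetic enzyme, had 22.1 to 49.7 CPM in low libraries (median 24.3) and 10.5, 16.8, 18.1, 22.2 and 13.1 CPM in basal ones (0.85, adjusted p = 0.0373). Sc5d, a sterol desaturase, was the fourth (0.59, adjusted p = 0.0455). Without the leaning libraries Stard4, Hsd17b7 and Sc5d had 0.40, 0.53 and 0.30. Scap, which escorts SREBP to the Golgi and has 59.1% GC, was lower, with 76.8 to 91.9 CPM in low libraries (median 88.9) and 126, 127, 103, 102 and 115 CPM in basal ones (-0.42, adjusted p = 0.028). The summed level of the list was 2041 to 2188 CPM in low libraries and 1813 to 1991 CPM in basal libraries. Of 20 genes of fatty acid synthesis and desaturation 0 were called (median 0.17).

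Lists of energy supply and protein synthesis had few called members. Of 21 glycolytic genes 1 was lower, Gpi1, the isomerase of the second step (-0.49, adjusted p = 0.0454), and the list median was -0.20, or 0.10 without the leaning libraries. Of 38 nuclear genes of the respiratory chain 0 were called, with a median of -0.30, or 0.37 without them, and of 11 mitochondrial genes 0 were called (median 0.16, or 0.17 without them). Of 53 cytosolic ribosomal protein genes 1 was lower, Rps3, and all 53 had values below 0, with a median of -0.64. Without the leaning libraries the ribosomal median was 0.32. Rps3, which has similar copies that can share reads, had 92.7 to 129 CPM in low libraries (median 113) and 186, 241, 123, 97.0 and 409 CPM in basal replicates 1 to 5 (-0.90, adjusted p = 0.0455). The summed ribosomal level was 2818 to 5034 CPM in low libraries and 3105 to 11296 CPM in basal libraries.

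Of 33 sodium and calcium channel genes 6 were higher and 0 lower (median 0.17, or 0.07 without the leaning libraries). They were Ryr3, Cacnb4, Scn1a, Scn2a, Ryr2 and Scn3a. Scn1a, a voltage-gated sodium channel, had 207 to 496 CPM in low libraries (median 269) and 121, 109, 167, 226 and 126 CPM in basal replicates 1 to 5 (1.02, adjusted p = 0.0244). Cacnb4, a calcium channel subunit, had 94.1 to 131 CPM in low libraries (median 108) and 50.2, 41.6, 74.1, 83.5 and 40.9 CPM in basal ones (0.92, adjusted p = 0.0109). Apart from Ryr3, these genes had 0.27 to 0.63 without the leaning libraries. Of 46 potassium and HCN channel genes 3 were higher and 0 lower (median 0.33, or 0.11 without the leaning libraries). Beside Kcna3 these were Kcnma1, the large-conductance calcium-activated channel (1.71, adjusted p = 0.00293), and Kcna2, an axonal channel (0.81, adjusted p = 0.0232). Kcnma1 had 22.1 to 70.9 CPM in low libraries (median 46.0) and 11.5, 12.0, 13.2, 24.7 and 10.6 CPM in basal ones. Its call held with the tag range (1.44, adjusted p = 0.0279) but not with the lean (1.49, adjusted p = 0.0795).

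Of 38 glutamate and GABA receptor genes 3 were higher and 1 lower (median 0.18, or -0.01 without the leaning libraries). Gabrb2, a GABA-A receptor subunit, had 83.0 to 138 CPM in low libraries (median 120) and 41.5, 37.6, 41.6, 71.1 and 11.5 CPM in basal replicates 1 to 5 (1.52, adjusted p = 0.0101). The NMDA receptor subunits Grin2a and Grin2b rose by 1.03 (adjusted p = 0.0131) and 0.76 (adjusted p = 0.0309), and the kainate receptor subunit Grik5 fell by 0.56 (adjusted p = 0.0374). Of 37 axon guidance genes 4 were higher and 1 lower (median 0.30, or -0.01 without the leaning libraries). Besides Dcc, the Slit receptor gene Robo2 rose by 0.93 (adjusted p = 0.0105), the ephrin receptor gene Epha7 by 0.63 (adjusted p = 0.0428) and the semaphorin gene Sema3e by 1.64 (adjusted p = 0.0463). Unc5a, a netrin receptor that mediates repulsion and has 62.7% GC, fell by 0.56 (adjusted p = 0.0419). Without the leaning libraries Robo2 had 0.60 and Unc5a -0.22.

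Feeding and hormone peptide genes were mostly below 0, 28 of 35 tested, with 0 higher, 2 lower and a median of -0.60 (-0.18 without the leaning libraries). Vgf, a precursor of secreted peptides, had 191 to 278 CPM in low libraries (median 252) and 461, 531, 254, 309 and 391 CPM in basal replicates 1 to 5 (-0.65, adjusted p = 0.0328). Qrfp, a peptide that promotes feeding, had 0.427 to 2.41 CPM in low libraries (median 1.27) and 5.27, 5.10, 4.08, 2.47 and 5.09 CPM in basal ones (-1.59, adjusted p = 0.0469). All low libraries were below all basal ones in Qrfp. Agrp, the appetite-promoting peptide of arcuate neurons, had 0.846 to 11.4 CPM in low libraries (median 3.52) and 15.8, 19.7, 8.01, 6.58 and 22.1 CPM in basal ones and did not pass (-1.72, adjusted p = 0.0644, and -0.75 without the leaning libraries). Pomc, the precursor of appetite-restraining peptides in the same nucleus, did not pass either, with 0.212 to 8.40 CPM in low libraries (median 6.79) and 22.9, 19.8, 14.9, 10.7 and 32.7 CPM in basal ones (-1.95, adjusted p = 0.0641). In Pomc, too, all low libraries were below all basal ones. Of 18 hypothalamic transcription factors and markers 0 were called (median -0.29), and their summed level was 134 to 275 CPM in low libraries and 242 to 335 CPM in basal libraries. The parts of the lean and of the dissection in the peptide values were not tested.

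Among lists of transcriptional responses few members were called. Of 22 immediate early genes 1 was lower, Rrad (list median -0.14). Of 20 glucocorticoid-responsive genes 0 were called (median -0.10), and of 25 genes of the unfolded protein response 0 were called (median -0.15). Of 21 clock genes 2 were higher (median 0.01), Rora, a nuclear receptor that drives Bmal1 (0.88, adjusted p = 0.0332), and Clock (0.49, adjusted p = 0.0478). Of 12 nuclear-retained long non-coding RNAs 1 was higher, Pvt1 (list median 0.26). Pvt1 had 9.28 to 13.5 CPM in low libraries (median 9.66) and 5.27, 5.24, 6.12, 6.99 and 5.75 CPM in basal replicates 1 to 5, without overlap (0.88, adjusted p = 0.011).

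Ubiquitin ligases had the largest share of members called among the 32 lists, 11 of 36 higher and 0 lower, with a median of 0.42. They included Cbl, Rnf213, Mib1, which activates Notch ligands, Mdm4, which restrains p53, and Birc6, Wwp1, Ubr3, Herc1 and Trim2. Mib1 had 207 to 312 CPM in low libraries (median 279) and 140, 119, 164, 217 and 98.9 CPM in basal replicates 1 to 5 (0.90, adjusted p = 0.0101). The last 6 of these had log2 fold changes of 0.45 to 0.82. Without the leaning libraries the list median was 0.09, and the list's median GC content is 46.3%. Of 48 zinc finger genes 5 were higher and 0 lower, with a median of 0.35 and 44 values above 0. They were Zfp871, Zfp445 (1.17, adjusted p = 0.0111), Zfp398 (0.78, adjusted p = 0.0279), Zfp518a (0.88, adjusted p = 0.0321) and Zfp729a (0.75, adjusted p = 0.0347). The median GC content of this list is 42.4%, and its median log2 fold change was 0.02 without the leaning libraries.

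Cell type markers were counted in the same way. Of 20 oligodendrocyte genes 3 were higher (median 0.30, or 0.49 without the leaning libraries), and their summed level was 6429 to 13892 CPM in low libraries and 5387 to 9590 CPM in basal libraries. Low replicates 1, 2 and 6, short of a peptide gene, had the 3 highest sums of the low libraries, 9439, 13892 and 9444 CPM, and low replicates 3, 4 and 5 had 6657, 6541 and 6429 CPM. Without the libraries short of a peptide gene the median was -0.13. The called genes were Enpp6, of newly forming oligodendrocytes (1.30, adjusted p = 0.0355), Gjc3, a connexin (0.60, adjusted p = 0.0419), and Ugt8a, the enzyme of myelin galactolipid synthesis (0.85, adjusted p = 0.0473). Of 18 astrocyte genes 2 were higher (median -0.05), Slc1a2, the main glutamate transporter (0.76, adjusted p = 0.0245), and Aqp4, the water channel (0.83, adjusted p = 0.0419). Slc1a2 had 1876 to 3082 CPM in low libraries (median 2880) and 1328, 1205, 1879, 2347 and 1258 CPM in basal replicates 1 to 5. The 16 microglial genes tested had a list median of -0.25, or 0.31 without the leaning libraries. Of 20 endothelial and mural genes 1 was higher, Slco1a4, an organic anion transporter (0.59, adjusted p = 0.0376, list median -0.05). Of 17 ependymal and tanycyte genes 2 were lower (median -0.63), Ccdc153, of ciliated cells (-1.57, adjusted p = 0.0294), and Nnat, which neurons express too (-0.96, adjusted p = 0.0419). Their summed level was 417 to 719 CPM in low libraries and 536 to 1205 CPM in basal libraries.

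Markers of neighbouring tissue and blood gave no calls, with 0 of 8 choroid plexus genes called (median 0.26), 0 of 11 pyramidal neuron genes (0.00), 0 of 12 striatal genes (-0.17), 0 of 10 thalamic genes (0.10), 0 of 2 pituitary genes (0.03) and 0 of 3 red blood cell genes (0.08). The thalamic markers summed to 759 to 1403 CPM in low libraries and 508 to 999 CPM in basal libraries, and their median was 0.73 without the leaning libraries, -0.22 without the libraries short of a peptide gene and -0.15 without low replicate 6. The pituitary gene Lhb had 0 counts in all 11 libraries. The part of these markers in the differences was not tested.

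The high rate shares the basal libraries, so its fitted differences are given only side by side. Dcc had 2.67 at the low and 2.24 at the high rate, Sesn3 1.74 and 1.68, Ryr3 1.30 and 1.16, Atp8a2 1.26 and 1.11, Insig1 0.70 and 0.71, Cbl 2.07 and 1.91, and Angptl4 -1.11 and -1.11. Whether low minus basal differs in the other regions was tested by the interaction of region and infusion over all 52 libraries in edgeR. It called 0 of 14985 genes against the hippocampus (3634 at an unadjusted p under 0.05) and 0 against the nucleus accumbens (2107). In the hippocampus Insig1 was higher at the low rate as well (0.59, adjusted p = 0.0169), and the hypothalamic value minus the hippocampal one was 0.09 (SE 0.18, adjusted p = 0.766). Sesn3 had 0.39 in the hippocampus and -0.54 in the nucleus accumbens (adjusted p = 0.168 and 0.144 for the difference from the hypothalamus). Ryr3 had -0.09 and -0.07 there (adjusted p = 0.107 and 0.2). None of these differences passed the threshold, which does not show that the regions act alike.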

How the data were processed

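RNA sequencing counts per gene were deposited as 1 table of the whole series, with 46071 genes and a column for each of the 52 libraries. Per the submitters' processing notes, the authors used STAR and featureCounts with the build GRCm38.p4; which strand setting was used is not given in the sources used here. Per the labels' protocols, total RNA was made into stranded libraries. The low and basal hypothalamic libraries (6 and 5, grouped by title) were compared by edgeR 4.0.16 in R 4.3.3, with TMM scaling, filterByExpr, robust quasi-likelihood dispersion over 16 hypothalamic libraries and Benjamini-Hochberg adjustment over 14139 genes, called under 0.05. CPM values use TMM-scaled library sizes. GC content and length are those of the longest GENCODE M21 transcript, matched for 45143 genes; deviations use log2 CPM with a prior count of 2. Values of a library (lean, total) were compared by 2-sided exact permutation tests. Alternatives used limma 3.58.1 (voom), DESeq2 1.42.0, sva 3.50.0 (1 surrogate variable), other terms for lean, tag range or run, and left-out libraries; loess offsets had a span of 0.3. Mean GC content over transcripts, and the lean to long transcripts, were added as covariates after seeing the data.

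The genes and the 32 lists were chosen with earlier results of these data known. Named genes were, among called genes with a mean of at least 5 CPM and no predicted-gene name, the 12 higher and 12 lower with the largest fold change; up to 12 called also with lean and with tag range; the 6 higher genes above and the 6 lower below the median GC content with the smallest p; and, at any level, up to 3 called members of each list, 74 genes in all. No pair of libraries within a group was alike within counting noise, with chi-square values per gene of 3.77 to 45.0 over 25 pairs. A few members of these lists are not reported here by name.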

Additional observations from a re-analysis of the deposited data

Results flagged for a closer look

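In groups of 4 to 10 libraries, a value was marked where its gap to the nearest other value was large for the range of its group by Dixon's criterion, which chance meets in about 1 in 20 groups; 13 of 152 groups of named genes met it. Low replicate 2 had the highest low value of Zfp871 (58.8 CPM), Lnpep (93.7 CPM), Fam135b (29.6 CPM), Stxbp5l (37.7 CPM), Gjc3 (147 CPM) and Aqp4 (187 CPM), and the lowest of Spint2 (20.1 CPM). Low replicate 1 had the highest low value of Hexim1 (59.7 CPM) and Gpi1 (439 CPM). Basal replicate 4 had the highest basal value of Lnpep (9.05 CPM), Ndnf (3.70 CPM), Slc9a7 (8.63 CPM) and Kcnma1 (24.7 CPM). Low replicate 2 was also among the libraries lacking a peptide gene, and basal replicate 4 had the lowest total count, 2453412.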

How the results depend on the processing

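Against 760 genes called (508 higher, 252 lower), DESeq2 called 1667 (936 higher, 731 lower), limma-voom 786 higher and 297 lower, the fit on the low and basal libraries alone 22 (22 and 0), tag range as a batch term 29 (27 and 2), tag run 16 (15 and 1), the highest tag range alone 0 (0 and 0), the lean as a covariate 22 (22 and 0), the lean from the mean GC content 22 (22 and 0), the lean with the lean to long transcripts 92 (89 and 3) and the lean with tag range 15 (15 and 0). Without the leaning basal libraries there were 3 (3 and 0), with 1 surrogate variable 441 (60 lower), with the smooth offset for GC content and length 140 (97 and 43), with the lean slope of the other regions 9 (9 and 0), leaving out libraries short of a peptide gene 24 (24 and 0), and with the log2 total count 140 lower. DESeq2 size factors, no filter on low counts and a fit of all 52 libraries stayed within 1.5 times, at 772, 597 and 734. Leaving out 1 library gave 52 to 3171 calls, 51 to 1594 higher and 1 to 1577 lower: 52 without basal replicate 2, 92 without basal replicate 1 and 197 without basal replicate 5, 2567 and 3171 without basal replicates 3 and 4, and 2034, 120, 136, 222, 477 and 138 without low replicates 1 to 6. The difference in lean was -0.633 to -0.401, past the threshold without low replicate 1 (-0.611), basal replicate 3 (-0.633) or basal replicate 4 (-0.614), and the difference in total count was -719841 to 452999, above 0 without low replicate 1 (305737), low replicate 3 (192295), basal replicate 2 (452999) or basal replicate 3 (241458).

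Of the 74 named genes, 14 kept their call with the lean, 15 with the tag range, 3 without the leaning libraries and all 74 with DESeq2. Without the leaning libraries Tceal3 (0.0523), Pafah1b3 (0.0402), Fxyd6 (0.0576) and Rps3 (0.0301) changed sign, as did Clock under the smooth offset (-0.0881). The cause of these changes was not tested. The labels give the groups no shared replicate numbers, so no pairing by replicate number was fitted; the tag run, entered as a batch term above, was the 1 block that joins low and basal libraries in pairs. Without the libraries short of a peptide gene Dgki had 0.68, Smyd1 0.67, Qrfp -1.001, Rora 0.58 and Gjc3 0.33, none called. Leaving out basal libraries leaves 2 to 4 of them, which limits the calls that fit can make.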
